A study of Mus musculus with 20 samples.

Results

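Hmga1, Hmga2, Igf2bp1, Igf2bp2, Igf2bp3, Lin28b, Crabp1 and Crabp2 are 8 genes known for high expression in the embryo, and their levels were followed through 3 stages of mouse nerve tumor, from neurofibroma through paraspinal tumor to GEM-PNST, the labels' name for a peripheral nerve sheath tumor of genetically engineered mice. The genes are 8 of 24062 in the deposited count table, and the group was chosen by the high CPM of Hmga2 and Crabp1 in some GEM-PNST libraries. Comparisons of the 8 genes that involve GEM-PNST are therefore given as descriptions, with no test. Of the 8 genes, 6 passed the filter on low counts that 16589 genes passed, and Hmga1 and Igf2bp1 did not.

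The 12 neurofibromas came from C57BL/6J mice with floxed Nf1 alleles (Nf1fl/fl) and DhhCre, a recombinase driven by a promoter active in Schwann cell precursors, so that Nf1 is removed in that lineage and not in the whole mouse. The 4 paraspinal tumors and 4 GEM-PNSTs came from mice that carried the same alleles and were also Ink4a/Arf+/-, with 1 disrupted copy of a locus that encodes cell cycle inhibitors. No drug was given, and ages are not given in the labels. Paraspinal libraries carry a further label, subgroup 2 for 2 of them and subgroup 1 for the other 2, and are called sub-clusters, a term that leaves unsaid whether expression values defined them. Each library is bulk tumor RNA, in which fewer cells of a type and less RNA per cell cannot be told apart.

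The name of the group, embryonic genes reactivated in GEM-PNST, held for some members and some libraries. Hmga2, Crabp1 and Igf2bp2 were far above their paraspinal levels in GEM-PNST libraries 2 and 4 and less so in library 3. In GEM-PNST library 1 Hmga2 had 1 count and Igf2bp2 was lower than in any paraspinal library. Igf2bp1 was at 0 counts throughout GEM-PNST, Igf2bp3 had 3 counts in library 4 and none in the others, and Lin28b was counted in library 2 alone.

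These genes belong to linked pathways of embryonic growth. LIN28B is an RNA-binding protein that blocks the maturation of let-7 microRNAs, and let-7 in turn represses mRNAs that carry its target sites, among them those of HMGA2, the IGF2BP proteins and LIN28B itself. HMGA1 and HMGA2 bind AT-rich DNA and bend chromatin, while IGF2BP1, IGF2BP2 and IGF2BP3 bind mRNAs such as those of Igf2, H19, Myc and Actb and regulate their stability and translation. CRABP1 and CRABP2 carry retinoic acid in the cytosol, CRABP2 delivering it to nuclear receptors, and Crabp1 marks migrating neural crest and mesenchyme in the embryo.

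Sequence matches to let-7, held by 6 of the genes although their levels differ, are shown first. The single matches of Hmga1, Igf2bp2 and Igf2bp3 are common, since 8%, 11.59% and 13.05% of 3′ UTRs of similar length hold as many. Mature let-7 microRNAs, which the libraries did not measure, carry a common seed (bases 2 to 8, in capitals) in 10 of 11 mouse family members of the RefSeq table (build GRCm38.p6), and mmu-let-7j alone has another seed.
mmu-let-7a-5p: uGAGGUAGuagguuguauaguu
mmu-let-7g-5p: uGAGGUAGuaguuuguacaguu
mmu-miR-98-5p: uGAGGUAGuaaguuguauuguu
mmu-let-7j: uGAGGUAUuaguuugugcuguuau

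The complement of this seed, CTACCTC, was searched on the transcript strand in the 3′ UTR of the GENCODE transcript (release M21, GRCm38) with the longest 3′ UTR of each gene. An 8-base match, CTACCTCA, is a 7-base match followed by A and is counted within the 7-base matches. Hmga2, Igf2bp1 and Lin28b each held 4 matches, of which 1, 3 and 1 were 8-base matches. Igf2bp2 and Igf2bp3 each held 1 match of 8 bases and Hmga1 held 1 of 7 bases, while Crabp1 and Crabp2 held none. Of 20659 mouse 3′ UTRs, 9.1% held a match. Among 3′ UTRs within 25% of the same length, as many matches were held by 0.14% for Hmga2, 0.27% for Igf2bp1 and 0.24% for Lin28b, but by 11.59% for Igf2bp2, 13.05% for Igf2bp3 and 8% for Hmga1. The first match of each gene is given with the 18 bases before it, and capitals mark the match.
Hmga2 (chr10:120364224-120364249, minus strand, base 58 of the 3′ UTR): ggcgccgacattcaatttCTACCTCA
Lin28b (chr10:45381022-45381047, minus strand, base 36 of the 3′ UTR): ttcacccgggcgggaagtCTACCTCA
Igf2bp1 (chr11:95961778-95961803, minus strand, base 1715 of the 3′ UTR): agtgctgtgcgaagtaaaCTACCTCA
Igf2bp2 (chr16:22059473-22059498, minus strand, base 1313 of the 3′ UTR): aaaacacacaaataaaagCTACCTCA
Igf2bp3 (chr6:49086787-49086812, minus strand, base 548 of the 3′ UTR): acgtgcatttttactcaaCTACCTCA
Hmga1 (chr17:27563274-27563298, plus strand, base 801 of the 3′ UTR): ttctcctctgttcacaaaCTACCTC

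**Figure D1:**
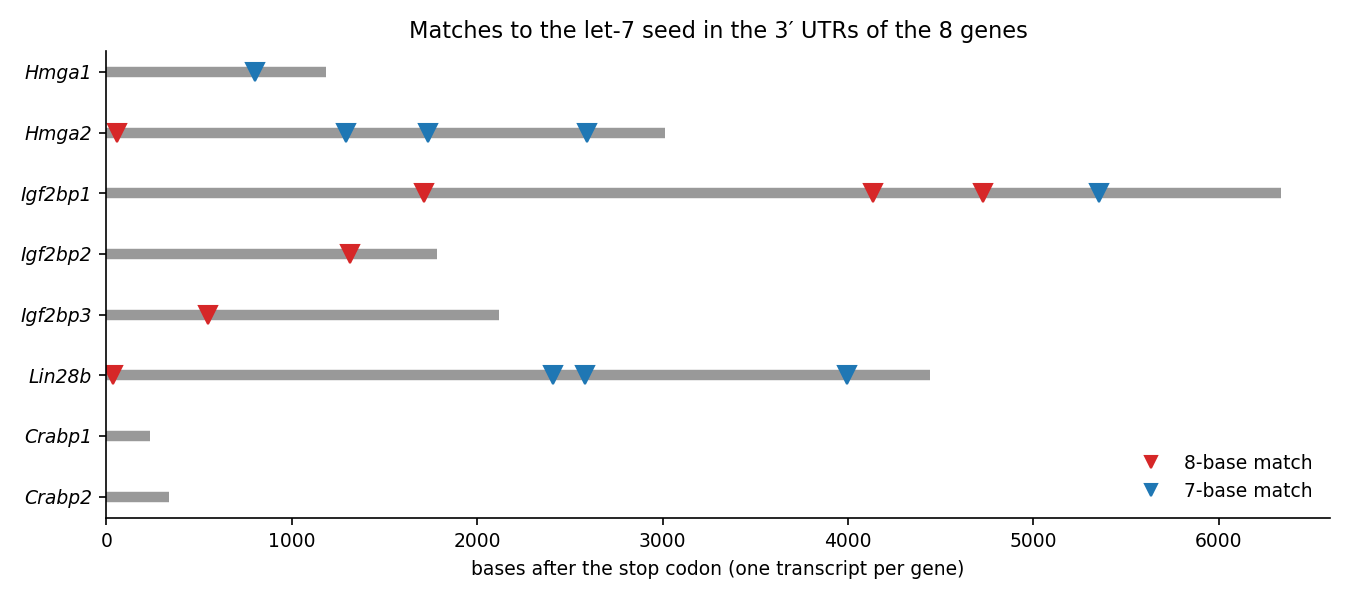
Matches to the let-7 seed in the 3′ UTRs of the 8 genes, plotted by bases after the stop codon along 1 transcript a gene. Hmga2, Igf2bp1 and Lin28b hold 4 matches each, spread over 3014, 6337 and 4445 bases, and the short 3′ UTRs of Crabp1 and Crabp2 (234 and 339 bases) hold none.

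Crabp1 and Hmga2, the genes whose values chose the group, differed in the 250 bases before their RefSeq transcription starts. The GC box, GGGCGG or CCGCCC on the other strand, occurred 5 times before Crabp1 and 1 time before Hmga2, which has long CT-rich runs. Across 32851 promoters of the same length 32.7% held at least 1 GC box and 8.5% held 3 or more. Of the other members with a promoter in the table, Igf2bp2 held 2 boxes, the 2 starts of Hmga1 held 3 and 4, and Igf2bp3 and Lin28b held none. Both sequences are printed 5′ to 3′ on the gene's strand (GRCm38.p6), with GC boxes in capitals.
Crabp1 (chr9:54764498-54764747, plus strand): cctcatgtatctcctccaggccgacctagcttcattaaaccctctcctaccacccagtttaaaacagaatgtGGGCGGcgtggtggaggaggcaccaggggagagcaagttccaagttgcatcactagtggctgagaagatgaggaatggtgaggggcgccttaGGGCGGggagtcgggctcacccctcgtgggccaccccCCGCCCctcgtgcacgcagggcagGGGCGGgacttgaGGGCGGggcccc
Hmga2 (chr10:120476470-120476719, minus strand): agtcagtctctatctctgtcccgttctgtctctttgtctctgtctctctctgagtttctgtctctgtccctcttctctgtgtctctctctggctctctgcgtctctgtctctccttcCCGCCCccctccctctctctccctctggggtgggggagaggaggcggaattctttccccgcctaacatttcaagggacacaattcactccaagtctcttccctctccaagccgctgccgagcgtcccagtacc

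Neurofibroma libraries held 9900759 to 17594164 counts, paraspinal libraries 18474071 to 24314222 and GEM-PNST libraries 16282605 to 22218382. Alignment file names put all paraspinal and GEM-PNST libraries in 1 run and the neurofibromas in another 2. The names begin with a run number, and sequencing and alignment runs cannot be told apart from it. Against neurofibroma, the effects of run, Ink4a/Arf genotype and stage therefore cannot be told apart. The targeted gene, Nf1, lay at 22.4 to 30.6 CPM (counts scaled to library size with TMM factors) in GEM-PNST, at 35.8 to 89.6 CPM in paraspinal tumors and at 217 to 275.2 CPM in neurofibromas. The summed CPM of 7 Schwann cell lineage markers was 1.83, 3.13, 959.9 and 22.3 in GEM-PNST libraries 1 to 4, against 1889.4 to 3226.3 in paraspinal libraries, so that 3 GEM-PNST libraries were near 0 for the labelled lineage. GEM-PNST library 3 stood apart by 9 salivary gland markers, which summed to 38992.6 CPM, against 0.811 to 6.74 in the other GEM-PNST and 15.5 to 19.4 in the paraspinal libraries. The summed CPM of 7 fibroblast markers was 193.6, 4083.4, 21211.5 and 9519.2 in GEM-PNST libraries 1 to 4, against 5472.1 to 15435.2 in paraspinal libraries. GEM-PNST library 2 alone had a high sum of 7 cartilage and bone markers, 5992.7 CPM against 29.3 to 1097.5 in the other GEM-PNST libraries. That sum rests on few genes, since Acan, Bglap, Col9a1 and Matn3 failed the filter and Ibsp had 0 counts in GEM-PNST. Of the 6 markers counted there, 2 were highest in library 2 and 3 in library 3, so the sum does not identify cartilage or bone. The part of these cell types in the values below was not tested.

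Hmga2, on chromosome 10 (120361275 to 120476469, minus strand, GRCm38), was high in 3 of 4 GEM-PNST libraries. It had 0.0676, 635.2, 26.2 and 420.4 CPM in libraries 1 to 4 of GEM-PNST, against 1.16 and 1.46 CPM in paraspinal subgroup 2 and 0.33 and 0.265 CPM in subgroup 1. GEM-PNST libraries 2, 3 and 4 lay above every paraspinal library, at 789.8, 32.6 and 522.7 times the paraspinal mean, and library 1, with 1 count, lay below all of them. Among the 16589 genes tested, 24.5% also had 3 or more GEM-PNST libraries above every paraspinal library, and 27.6% had GEM-PNST and paraspinal libraries that did not overlap at all, which was so for none of the 8 members. These shares are printed beside values that the choice of members used, and nothing is read from them. The mean log2 CPM was 5.09 ± 5.38 in GEM-PNST and -0.37 ± 1.03 in paraspinal libraries (SD, n = 4 each), a difference of 5.46 that was 4.05 without GEM-PNST library 2 and 7.95 without library 1.

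Hmga2 was lower in paraspinal tumors than in neurofibromas. The 4 paraspinal libraries had 0.265 to 1.46 CPM, against 6.45 CPM in the lowest, 8.29 in the median and 10.7 in the highest neurofibroma library. The groups did not overlap, which held for 36.5% of all genes tested, and the log2 fold change was -3.37 (SE 0.40, edgeR's quasi-likelihood test, adjusted p = 1.49e-06). So the neurofibromas formed a narrow group between the paraspinal libraries and GEM-PNST libraries 2, 3 and 4. An antisense gene, 1700006J14Rik, shares 140 exon bases with Hmga2, and 2.7% of the 50-base stretches of Hmga2 occur in other genes. The pseudogene Hmga2-ps1 had 53.4, 13.7, 18.2 and 26.1 CPM in libraries 1 to 4 of GEM-PNST, against 5.35 to 8.78 CPM in paraspinal libraries, and was highest where Hmga2 was lowest.

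Hmga1, on chromosome 17 (27556497 to 27563674, plus strand), was counted at low levels throughout and failed the filter. Its CPM was 0.27, 1.67, 0.0496 and 4.68 in GEM-PNST libraries 1 to 4, against 0.243 and 0.182 in paraspinal subgroup 2 and 0.454 and 0.486 in subgroup 1. Only GEM-PNST libraries 2 and 4 exceeded the paraspinal range, with 31 and 58 counts against 5 to 11. Neurofibroma libraries had a median of 0.0747 and at most 0.222 CPM, or 4 counts. Of its 50-base stretches, 55.0% occur in Hmga1b or AI413582, so reads of Hmga1 may have been lost in counting and its level is uncertain.

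Igf2bp2, on chromosome 16 (22059009 to 22163299, minus strand), followed the same order of GEM-PNST libraries as Hmga2 over a smaller range. It had 0.811, 158.3, 13.6 and 60.7 CPM in libraries 1 to 4 of GEM-PNST, against 2.38 and 2.8 CPM in paraspinal subgroup 2 and 2.93 and 5.48 CPM in subgroup 1. Libraries 2, 3 and 4 were above all paraspinal libraries, by 46.6, 4 and 17.9 times their mean, and library 1 was below them at 0.239 times that mean. In neurofibromas Igf2bp2 ranged from 1.16 CPM over a median of 3.62 to 14.7, so GEM-PNST library 3 lay within the neurofibroma range. Paraspinal and neurofibroma libraries overlapped, and the log2 fold change of -0.78 (SE 0.58) did not pass the test (edgeR, adjusted p = 0.255).

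Igf2bp1 and Igf2bp3 had at most 3 counts in any GEM-PNST library. Igf2bp1, on chromosome 11 (95957163 to 96005940, minus strand), had 0 counts in all 4 GEM-PNST libraries and 0 to 2 in the paraspinal libraries. In neurofibromas it had 0 counts in 5 libraries and at most 20 (1.57 CPM). Against a floor of 3 counts over the group, Igf2bp1 was at least 6.89-fold lower in GEM-PNST than in neurofibroma libraries pooled. GEM-PNST and paraspinal libraries both overlapped with neurofibromas, of which 5 also had 0 counts. The pooled folds therefore allow for counting error only and are not bounds on the spread between libraries. For paraspinal tumors, with 3 counts in all, the pooled level was 9.93-fold lower than in neurofibromas (95% exact interval 3.21 to 49.7, counting error only). Neurofibroma library 7 held 20 of the 51 neurofibroma counts, and without it, an alternative chosen after seeing the data, these values were at least 4.54-fold and 6.55-fold (95% exact interval 2.04 to 33.5).

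Igf2bp3, on chromosome 6 (49085223 to 49214957, minus strand), separated neurofibromas from all other libraries. It had 0, 0, 0 and 3 counts in GEM-PNST libraries 1 to 4 and 0 counts in all 4 paraspinal libraries, so no fold is given between these stages. The 12 neurofibroma libraries all had it, with 149 to 330 counts, or 13.1 CPM in the lowest, 16.3 in the median and 20.4 in the highest. Paraspinal tumors were at least 513.5-fold lower than neurofibromas (floor of 3 counts over the group; edgeR's quasi-likelihood test, adjusted p = 4.57e-12). In GEM-PNST the pooled level was 356.3-fold lower than in neurofibromas, a description that rests on the 3 counts of library 4. The neurofibroma values varied little, with an SD of 2.06 CPM around a mean of 16.2 (n = 12).

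At a cut of 100 counts, few rows of the table shared this on-and-off pattern, and most of those were of another kind. Rows with lower neurofibroma counts, such as Nanog with 34 to 62, fall outside this cut. Including Igf2bp3, 38 of 24062 genes had 100 or more counts in all 12 neurofibroma libraries and 3 or fewer in all 8 others. Of these, 30 carry names of predicted genes, Rik clones or olfactory or vomeronasal receptors, and Igf2bp3 ranked 24 by median neurofibroma count. Only 2 genes showed the reverse. Run changes with stage in exactly this way, and its part in the Igf2bp3 values cannot be told apart. Igf2bp3 also shares 1529 exon bases with Malsu1 on the opposite strand, which had 18.9 to 46.3 CPM in GEM-PNST, 7.07 to 14.8 CPM in paraspinal and 7.38 to 16.6 CPM in neurofibroma libraries, and the strand setting of the counting is not given in the sources used here.

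Lin28b, on chromosome 10 (45376620 to 45486395, minus strand), was lower in GEM-PNST than in paraspinal tumors in 3 of 4 libraries. It had 0, 1.29, 0 and 0 CPM in libraries 1 to 4 of GEM-PNST, against 1.21 and 0.656 CPM in paraspinal subgroup 2 and 2.35 and 2.61 CPM in subgroup 1. Library 2, with 24 counts, lay between the 2 paraspinal subgroups, and the others had no count. The mean log2 CPM differed by -2.84 between GEM-PNST and paraspinal libraries. Its paralog Lin28a, the other LIN28 gene, had at most 0.0807 CPM in GEM-PNST, 0.575 CPM in paraspinal and 0.657 CPM in neurofibroma libraries.

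In paraspinal tumors Lin28b did not pass the test against neurofibromas. Its levels there, 0.656 to 2.61 CPM, overlapped with neurofibromas, which ran from 0 CPM in library 4 over a median of 4.31 to 12.9 CPM in library 11. The log2 fold change was -1.54 (SE 0.79, edgeR, adjusted p = 0.102). It passed with DESeq2 (-1.62, adjusted p = 0.0348) and without neurofibroma library 4 (-1.66, edgeR, adjusted p = 0.0162), and over 16 alternatives the adjusted p ranged from 0.0162 to 0.442.

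Lin28b was highest and lowest in the neurofibroma libraries that were highest and lowest for sensory neuron markers. The 10 markers, which include the neuronal genes Scn10a, Isl1, Prph and Tubb3, summed to 7867.1 CPM in neurofibroma library 11 and to 16 CPM in library 4. In the other 10 neurofibroma libraries the sum was 1299.4 to 4528.9 CPM and Lin28b was 1.77 to 10.2 CPM. GEM-PNST libraries had sums of 483.3, 50.2, 149.8 and 45.9 CPM, against 3082.8 to 5123.8 CPM in paraspinal libraries, and Scn10a had 0 counts in all 4 GEM-PNST libraries. The part of sensory neurons in the Lin28b values was not tested. Hmga2 had 8.47 CPM in neurofibroma library 4 and 10.5 CPM in library 11, both within the narrow neurofibroma range.

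**Figure D2:**
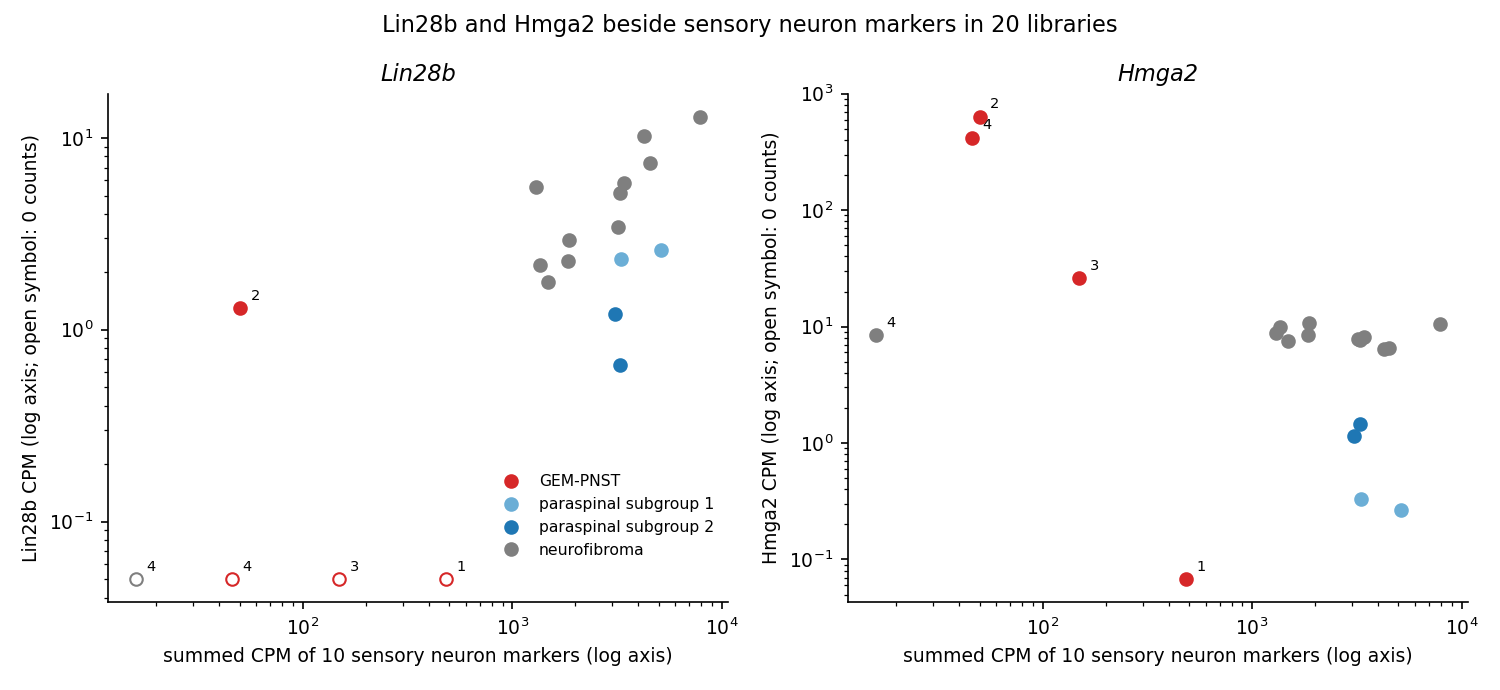
CPM of Lin28b (left) and Hmga2 (right) against the summed CPM of 10 sensory neuron markers, both on log axes, 1 point per library coloured by group, with GEM-PNST points and neurofibroma library 4 numbered. Neurofibroma library 4 (16 CPM of markers) had no Lin28b count but 8.47 CPM of Hmga2, and Hmga2 was highest in GEM-PNST libraries 2 and 4, which had 50.2 and 45.9 CPM of markers.

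Crabp1, on chromosome 9 (54764748 to 54773110, plus strand), had the highest level per kb of exon of the 8 genes in every GEM-PNST library. It had 4.53, 2208.8, 64.1 and 2244.2 CPM in libraries 1 to 4 of GEM-PNST, against 7.28 and 3.97 CPM in paraspinal subgroup 2 and 1.94 and 2.61 CPM in subgroup 1. Libraries 2, 3 and 4 were above every paraspinal library, at 559.2, 16.2 and 568.2 times their mean, and library 1 was within the paraspinal range. In log2 CPM GEM-PNST libraries averaged 7.62 ± 4.33 and paraspinal libraries 1.85 ± 0.80 (SD, n = 4 each). Unlike Hmga2, Crabp1 was above every neurofibroma library in all 4 GEM-PNST libraries, although library 1 exceeded the highest neurofibroma, at 2.73 CPM, by less than the range within neurofibromas. Of all genes tested, 21.3% had all 4 GEM-PNST libraries above every neurofibroma and 29.4% had 3 or more, and the Crabp1 values are those that chose the group, so nothing is read from this.

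Crabp1 was also higher in paraspinal tumors than in neurofibromas. Against 1.94 to 7.28 CPM in paraspinal libraries, the lowest neurofibroma had 0.302, the median 1.28 and the highest 2.73 CPM. The groups overlapped, and the log2 fold change was 1.56 (SE 0.46, edgeR, adjusted p = 0.00772). Without paraspinal subgroup 2 library 1 it was 1.08 and did not pass (edgeR, adjusted p = 0.0792), and in 1 fit of all 20 libraries it was 1.41 (adjusted p = 0.154).

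Crabp2, on chromosome 3 (87948666 to 87953376, plus strand), did not follow Crabp1. It had 0.203, 25.9, 12.2 and 4.92 CPM in libraries 1 to 4 of GEM-PNST, against 55.8 and 46.8 CPM in paraspinal subgroup 2 and 9.29 and 10.2 CPM in subgroup 1. No GEM-PNST library reached subgroup 2, and libraries 1 and 4 lay below every paraspinal library. The mean log2 CPM was 2.26 ± 2.76 in GEM-PNST and 4.49 ± 1.38 in paraspinal libraries (SD, n = 4 each), a difference of -2.23 that was -0.94 without GEM-PNST library 1. Against neurofibromas, which ran from 0.705 over a median of 3.5 to 12.3 CPM, Crabp2 rose in paraspinal tumors, with both subgroup 2 libraries above all neurofibromas and both subgroup 1 libraries within their range and with a log2 fold change of 2.75 (SE 0.55, edgeR, adjusted p = 0.000351).

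Of the 6 tested members, 4 passed the test of paraspinal tumors against neurofibromas, as did 59.6% of all genes tested, so the share is near that of the whole table. Crabp1 and Crabp2 rose, among 30.3% of all genes that rose, and Hmga2 and Igf2bp3 fell, among 29.3% that fell.

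**Figure D3:**
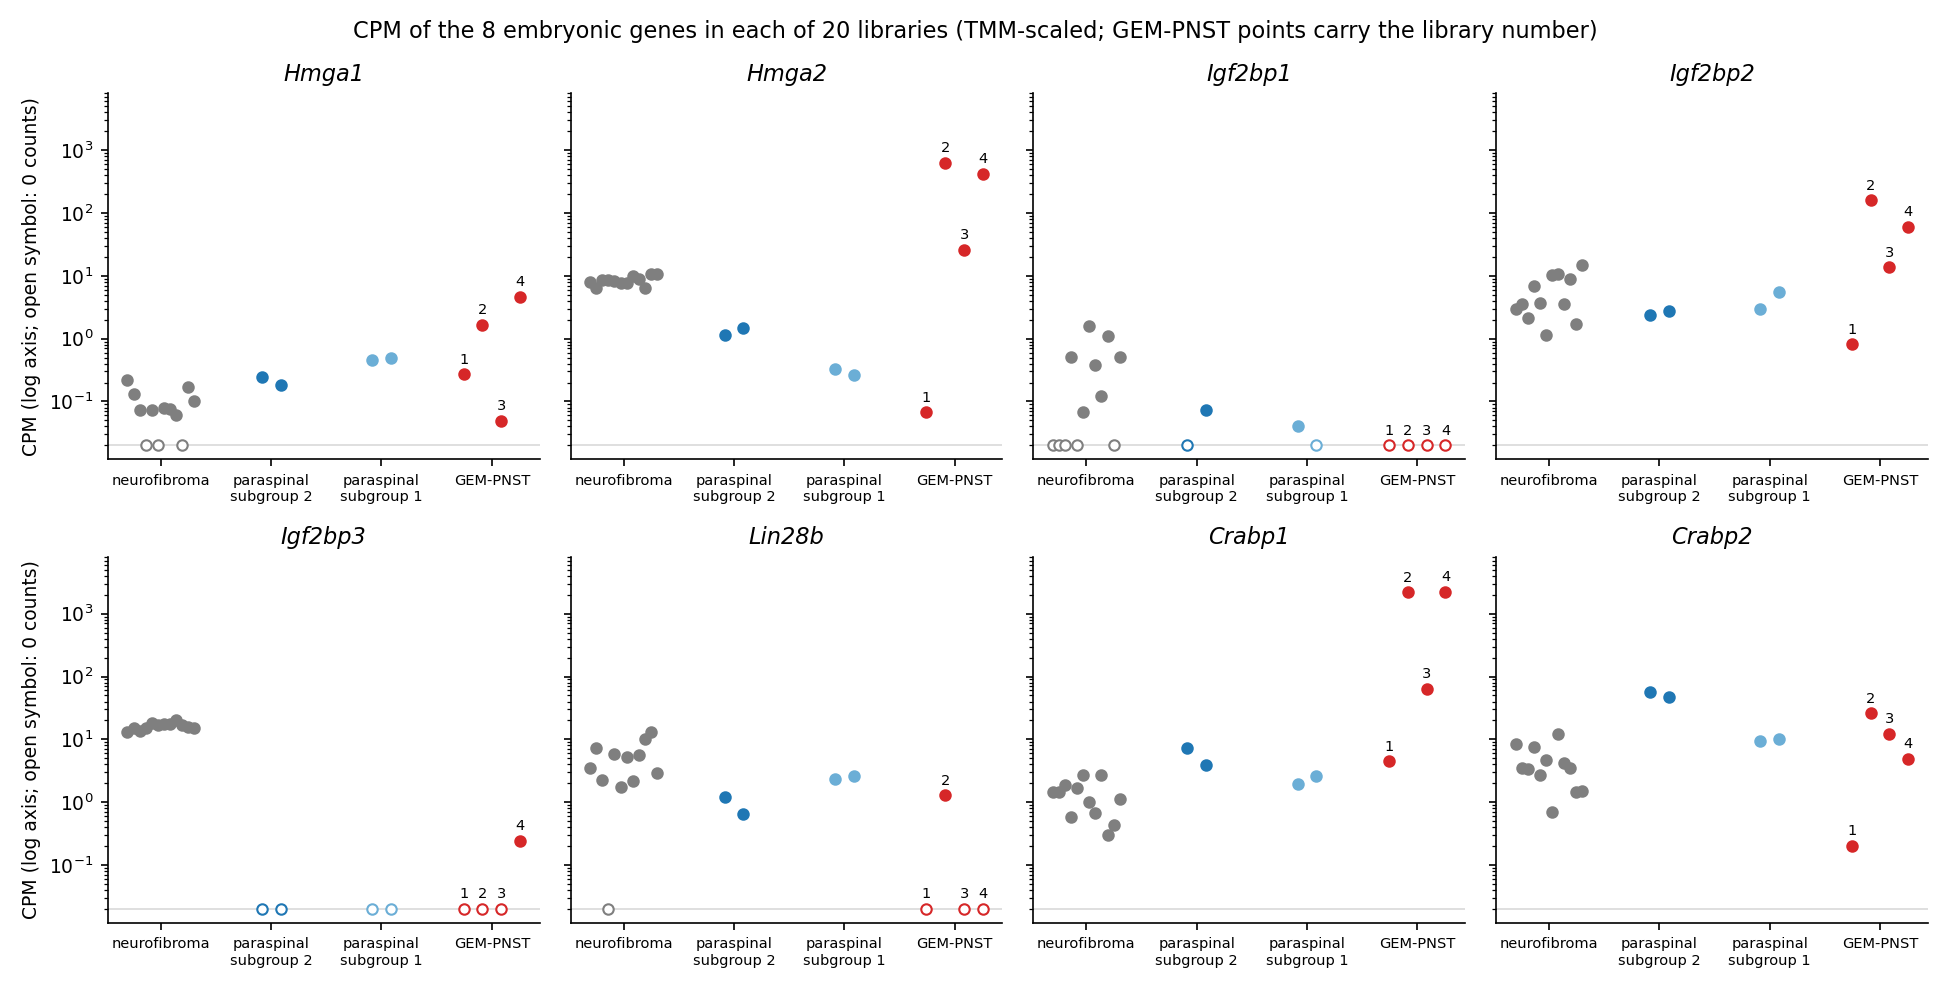
CPM of each of the 8 genes on a log axis in every library, by group, with the GEM-PNST libraries numbered and open symbols for 0 counts. Hmga2, Igf2bp2 and Crabp1 share an order of GEM-PNST libraries, with 2 and 4 above 3 and 3 above 1, whereas Igf2bp3 is present in all neurofibromas (13.1 to 20.4 CPM) and at 0 in all paraspinal libraries.

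The order of GEM-PNST libraries, 2 and 4 above 3 and 3 above 1, was common to 3 of the 8 members, Hmga2, Igf2bp2 and Crabp1. It was also found in 12.4% of the 12512 tested genes that reached 5 CPM in a GEM-PNST library. That base leaves out Hmga1, Igf2bp1, Igf2bp3 and Lin28b. The order was seen in Hmga2 and Crabp1, whose values chose the group, so nothing is read from this share. Libraries 1, 2 and 4 were low in Schwann lineage markers, and the fibroblast marker sums of libraries 2 and 4 lay between those of libraries 1 and 3. The part of these cell types in the order was not tested. Summed CPM of 10 cycling cell markers was 952.8, 634.5, 343.8 and 787.4 in GEM-PNST libraries 1 to 4, against 39.8 to 275.4 in paraspinal libraries, and so was highest in library 1, where Hmga2 and Igf2bp2 were lowest.

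Per kilobase of exon, Crabp1 led in both of the libraries where these genes were high. In GEM-PNST library 2 the levels per kb were 2754.1 CPM for Crabp1, 93.8 for Hmga2, 21.4 for Igf2bp2, 19.6 for Crabp2, 0.787 for Hmga1 and 0.143 for Lin28b. Library 4 had the same order of the first 4 genes, with 2798.2 CPM per kb for Crabp1, 62.1 for Hmga2, 8.2 for Igf2bp2 and 3.73 for Crabp2. Paraspinal tumors were led instead by Crabp2, at a median of 21.6 CPM per kb, followed by Crabp1 at 4.1 and Igf2bp2 at 0.387. Lin28b, Hmga1 and Hmga2 came next, at medians of 0.197, 0.164 and 0.11 CPM per kb, and their ranges over the 4 paraspinal libraries overlapped. In neurofibromas the median per kb was 2.65 CPM for Crabp2, 2 for Igf2bp3, 1.59 for Crabp1 and 1.22 for Hmga2. Each of these ranges overlapped that of its neighbour in the order, whereas Hmga2, at 0.952 to 1.58 CPM per kb, stayed below Igf2bp3, at 1.61 to 2.51.

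**Figure D4:**
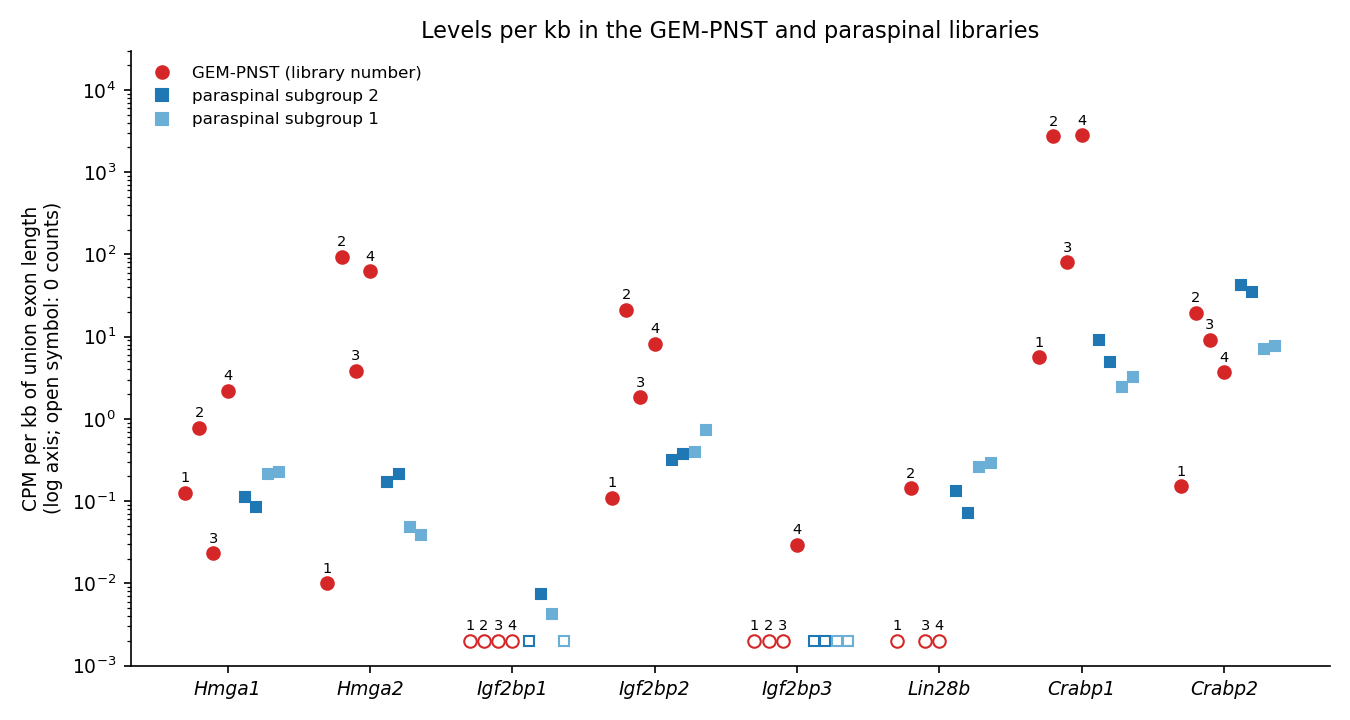
CPM per kb of union exon length on a log axis for the 8 genes, with numbered GEM-PNST libraries (circles) to the left of paraspinal libraries (squares) and open symbols for 0 counts. Crabp1 reaches 2754.1 and 2798.2 CPM per kb in GEM-PNST libraries 2 and 4, and Crabp2 is highest in paraspinal subgroup 2.

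Between the paraspinal subgroups, 0 of 6 tested members passed, as did 0 (0%) of 16589 genes by edgeR's quasi-likelihood test. No member had an unadjusted p under 0.05 by edgeR, and none passed with DESeq2 or limma-voom, whereas 2132 of all genes had an unadjusted p under 0.05 by edgeR and 1212 passed with DESeq2. Crabp2 was 2.38 higher in subgroup 2 than in subgroup 1 in log2 fold change (SE 1.52, edgeR, adjusted p = 0.58), with both subgroup 2 libraries above both subgroup 1 libraries. With 2 libraries each, 69.6% of all genes tested had subgroups that did not overlap, 34.6% with subgroup 2 above and 34.9% with it below, so such a separation of a member is not a result about it. Hmga2 (2.1, SE 2.53, edgeR, adjusted p = 0.809) and Crabp1 (1.29, SE 2.12, adjusted p = 0.873) also had subgroup 2 above subgroup 1 in both libraries. Lin28b (-1.42, SE 2.12, edgeR, adjusted p = 0.858) and Igf2bp2 (-0.71, SE 1.70, adjusted p = 0.928) had subgroup 2 below subgroup 1. With 2 libraries each and the GEM-PNST spread in the fit, the errors are wide, and a difference that did not pass is not shown to be absent.

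Genes around the 8 members were counted in 10 lists, given as counts beside those of all genes. A list gene that did not pass is not shown to be unchanged. In GEM-PNST against paraspinal tumors 10.9% of all genes tested passed, 2.77% higher and 8.13% lower, with a median log2 fold change of 0. Of 9 other HMG-box and nucleosome-binding chromatin proteins, Hmgb2 alone rose (log2 fold change 2.49, SE 0.63, edgeR, adjusted p = 0.0421), and the list's median was 0.96. Hmgb2, a DNA-bending protein of dividing cells, had 240.6, 58.2, 38.1 and 68.5 CPM in libraries 1 to 4 of GEM-PNST, against 9.7 to 29.4 CPM in paraspinal libraries. The groups did not overlap, and 11.2% of all genes tested had GEM-PNST above in this way. Hmgb2 was highest in library 1, which also had the highest sum of cycling cell markers, whose part in the result was not tested. Its call was lost when any of 5 libraries was left out, GEM-PNST 1 or 4, paraspinal subgroup 2 library 2 or either subgroup 1 library, with adjusted p of 0.051 to 0.126, and without GEM-PNST library 1 the log2 fold change was 1.68.

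In the IGF2 axis no gene passed the test between these stages. None of 12 genes from Plag1 to the IGF receptors passed in GEM-PNST against paraspinal tumors, with a median log2 fold change of 0.07. Insr, the insulin receptor, had 3.45, 79.4, 46.4 and 45.9 CPM in libraries 1 to 4 of GEM-PNST, against 33.6 to 51.7 CPM in paraspinal libraries (log2 fold change -0.08, SE 0.71, edgeR, adjusted p = 0.961). Its direction turned in 4 alternatives. H19, the imprinted RNA next to Igf2 and a client of IGF2BP proteins, had 0.0676, 140.3, 46.5 and 92.4 CPM in libraries 1 to 4 of GEM-PNST, against 155.9, 31.9, 12.2 and 5.35 CPM in the paraspinal libraries, so that it too was nearly absent from library 1. Igf2 had 36.8, 7.88, 11.5 and 8.56 CPM in libraries 1 to 4 of GEM-PNST, against 4.42 to 21.5 CPM in paraspinal libraries.

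Among the let-7 lists, Myc was the gene that rose. None of 13 genes of let-7 processing passed, and 1 of 21 other let-7 targets did. Myc, a growth regulator whose mRNA is also a client of IGF2BP1, had 110.2, 69.8, 27.5 and 87.4 CPM in libraries 1 to 4 of GEM-PNST, against 11.1 to 25 CPM in paraspinal libraries (log2 fold change 1.87, SE 0.46, edgeR, adjusted p = 0.0387). GEM-PNST lay above paraspinal libraries with no overlap, as in 11.2% of all genes tested. Myc was highest in library 1, where Hmga2 had 1 count. Myc had the same order of GEM-PNST libraries as the summed cycling cell markers given above, and the sum of 6 macrophage markers was 1381.9 to 3882.3 CPM in GEM-PNST, against 239.8 to 1358.5 CPM in paraspinal libraries. The part of either in the Myc values was not tested. Leaving out any library other than GEM-PNST library 3 lost the call, with adjusted p of 0.0545 to 0.115. Ago2, which binds mature microRNAs, had 4.17 to 23.7 CPM in GEM-PNST and 4.15 to 61.5 CPM in paraspinal libraries and did not pass (edgeR, adjusted p = 0.438).

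Of 16 IGF2BP partners and client mRNAs, 2 rose and 1 fell in GEM-PNST. Besides Myc, Ptbp1, a splicing regulator, rose to 252.9 to 570.6 CPM in GEM-PNST, against 92.2 to 217.1 CPM in paraspinal libraries (log2 fold change 1.49, SE 0.37, edgeR, adjusted p = 0.0405). That call was lost without any 1 of 6 libraries, all but GEM-PNST library 3 and paraspinal subgroup 2 library 1, with adjusted p of 0.0564 to 0.121. Elavl2, a neuronal RNA-binding protein, had 0, 2, 0 and 0 counts in GEM-PNST libraries, against 19.8 to 87.4 CPM in paraspinal libraries, a pooled level 1685.6-fold lower (95% exact interval 466.4 to 13922.4, counting error only; edgeR, adjusted p = 0.002). Summed sensory neuron markers were lower beside it, as given above for Lin28b, and their part in its fall was not tested.

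The retinoid lists held no change past the threshold in GEM-PNST. None of 11 genes of retinoid synthesis and carriers, 2 of retinoic acid breakdown and 14 receptors and targets passed, with list medians of -0.82, -0.83 and -0.68. Aldh1a1, which makes retinoic acid from retinal, had 2.98, 30.2, 12.5 and 4.52 CPM in libraries 1 to 4 of GEM-PNST, against 27.1 to 87.6 CPM in paraspinal libraries (log2 fold change -2.42, SE 0.74, edgeR, adjusted p = 0.0676, and 0.00671 to 0.173 over 15 alternatives). Ncor1, a corepressor that binds unliganded retinoid receptors, had 63.7, 56.8, 65.2 and 89.4 CPM in libraries 1 to 4 of GEM-PNST, against 62.5 to 147.5 CPM in paraspinal libraries (log2 fold change -0.67, SE 0.37, edgeR, adjusted p = 0.241, and 0.0121 to 0.539 over 15 alternatives). Cyp26b1, an enzyme that degrades retinoic acid, had 74.7, 46, 3.13 and 0.484 CPM in libraries 1 to 4 of GEM-PNST, against 17.3 to 69.4 CPM in paraspinal libraries (log2 fold change -0.37, SE 1.16, edgeR, adjusted p = 0.853), a direction that turned in 4 alternatives. Rarb is a retinoic acid receptor that is itself induced by retinoic acid. It had 0.879, 0.054, 7.39 and 1.61 CPM in libraries 1 to 4 of GEM-PNST, against 8.62 to 23.7 CPM in paraspinal libraries. It did not pass (log2 fold change -2.68, SE 1.12, edgeR, adjusted p = 0.136) and was chosen for naming after its values were seen. The receptor gene Rara went the other way and did not pass either (0.58, SE 0.37, edgeR, adjusted p = 0.306).

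Few other embryonic genes could be tested beside the members. Of 16 pluripotency and oncofetal genes 7 were tested, and the 9 others, Afp, Pou5f1 and Sall4 among them, failed the filter. Dlk1, an imprinted inhibitor of differentiation, rose (log2 fold change 7.57, SE 1.84, edgeR, adjusted p = 0.0383), with 5.61, 8.69, 4.81 and 372.2 CPM in libraries 1 to 4 of GEM-PNST, against 0.221 to 0.825 CPM in paraspinal libraries. With 5 to 20 counts in paraspinal and 0 to 11 in neurofibroma libraries, it passed the filter largely through GEM-PNST, where it was high. Without GEM-PNST library 4 the log2 fold change of Dlk1 was 3.57 (edgeR, adjusted p = 0.0284). The Dlk1 call was lost without any 1 paraspinal library, with adjusted p of 0.0748 to 0.114, and with limma-voom (4.74, adjusted p = 0.117). None of 14 neural crest and limb mesenchyme factors passed, with a list median of 1.54. Prrx1, a limb mesenchyme factor, had 9.74, 388.6, 86.7 and 191.5 CPM in libraries 1 to 4 of GEM-PNST, the order seen in Hmga2, against 10.7 to 23.9 CPM in paraspinal libraries (log2 fold change 3.09, SE 0.91, edgeR, adjusted p = 0.0612). It passed in 3 of 15 alternatives, among them without GEM-PNST library 1 (3.51, edgeR, adjusted p = 0.0098), and the adjusted p ranged from 0.002 to 0.322.

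In paraspinal tumors against neurofibromas, where 59.6% of all genes passed with a median log2 fold change of -0.02, the lists moved in both directions. Of 9 HMG proteins 3 rose and 4 fell, led by Hmg20b (3.18, SE 0.19) and Hmgn3 (2.40, SE 0.29), which rose, and Hmgb1 (-1.36, SE 0.15), which fell. Of 12 genes of the IGF2 axis 7 fell and 2 rose. Insr fell by 2.00 and the transcription factor gene Plagl2 fell by 1.23 on the log2 scale, while H19 rose by 2.97 (edgeR, adjusted p = 0.000506), a call lost without paraspinal subgroup 2 library 1 (1.33, adjusted p = 0.0563). Of 13 let-7 processing genes 5 fell and 3 rose. Ago3 fell by 3.73 and Zcchc11, whose enzyme tails let-7 precursors with LIN28, fell by 1.57, and Tarbp2, a partner of Dicer, rose by 1.71.

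The let-7 targets and IGF2BP clients split in the same way. Of 21 let-7 targets 6 rose, with Hras up by 2.22, Cdc34 by 1.77 and Cdc25a by 1.41 on the log2 scale, and 6 fell. Of 16 IGF2BP partners and clients 5 fell, among them Syncrip (-0.94) and Fmr1 (-1.37), and 3 rose. Neither list had a median away from that of all genes, at -0.08 and 0.05.

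Retinoid receptors and carriers were counted beside Crabp1 and Crabp2. Of 14 receptors and targets 8 rose and 3 fell, against 30.3% and 29.3% of all genes, with a list median of 0.90. Rarg, a retinoic acid receptor, had 85 to 107.5 CPM in paraspinal libraries, against 14.3 to 26.7 CPM in neurofibromas (log2 fold change 2.40, SE 0.15, edgeR, adjusted p = 1.02e-09). Rxrb, the partner receptor gene, rose by 2.10 and Rarres2, which encodes the secreted protein chemerin, by 2.72. Of 11 genes of synthesis and carriers 4 rose, including Fabp5 (1.89), a carrier that also binds retinoic acid, and Rdh11 (1.62), and 2 fell, including Lrat (-3.50), which stores retinol as esters. Cyp26b1 did not pass (0.01, SE 0.48, edgeR, adjusted p = 0.989), and its sign turned in 7 alternatives.

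Among pluripotency and oncofetal genes 1 rose and 2 fell, and among neural crest and limb factors 6 rose and 5 fell. Sox2 rose by 1.61 and Peg10 fell by 1.14 on the log2 scale, calls that were lost with all 20 libraries fitted together (edgeR, adjusted p = 0.0634 for Sox2 and 0.184 for Peg10). Nanog had 3 counts in all over the 4 paraspinal libraries, against 2.79 to 4.38 CPM in neurofibromas, a pooled level 113.7-fold lower (95% exact interval 38.7 to 552.8, counting error only; edgeR, adjusted p = 2.24e-07). With 0 counts in GEM-PNST as well, it had the on-and-off pattern of Igf2bp3 at lower counts, and the part of run cannot be told apart. Msx1 (5.25, SE 0.62), Prrx2 (3.09, SE 0.50) and Twist1 (2.57, SE 0.45), factors of mesenchyme and crest, rose. Summed fibroblast markers were 5472.1 to 15435.2 CPM in paraspinal and 1179.6 to 10494.6 CPM in neurofibroma libraries, and their part in these changes was not tested.

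**Figure D5:**
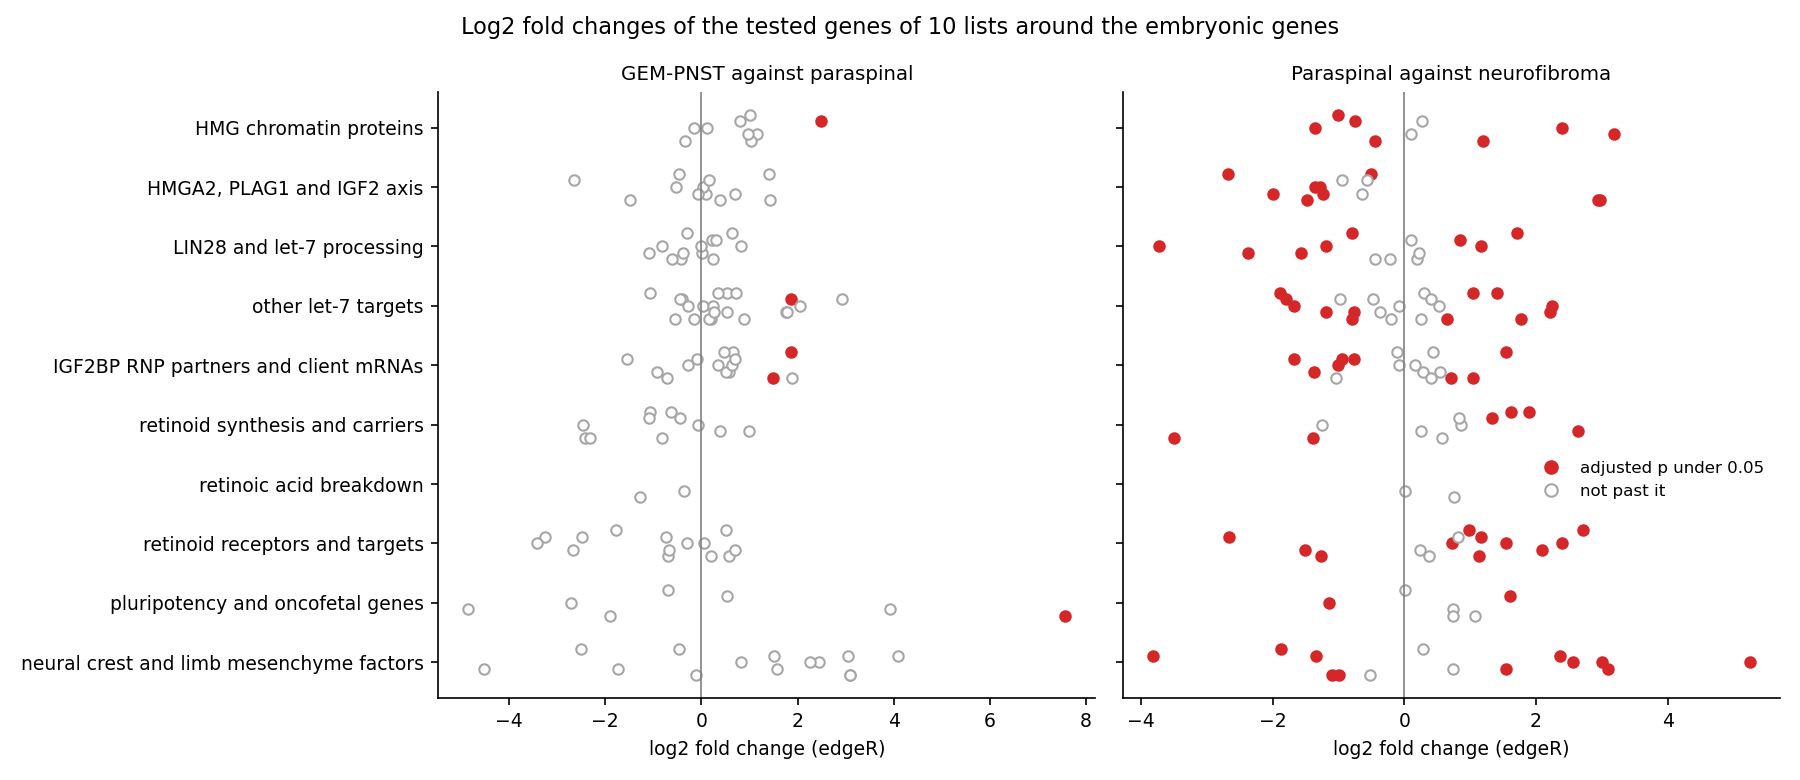
Log2 fold changes of the tested genes of 10 lists in GEM-PNST against paraspinal (left) and paraspinal against neurofibroma tumors (right), 1 point per gene, filled where the adjusted p was under 0.05. Elavl2 on the left and Nanog on the right are left out, since their fitted values rest on 2 and 3 counts. In the left panel only Hmgb2, Myc, Ptbp1 and Dlk1 are filled, and on the right both directions are.

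The genes most like Hmga2, Crabp1 and Lin28b over the 20 libraries are given as a description, since the profiles they were matched to include the GEM-PNST values that chose the group. Likeness was the root mean square difference of log2 CPM after centring each gene on its mean, over 20 libraries and 14590 genes. Closest to Hmga2 were Chrna1 (1.17), a subunit of the muscle acetylcholine receptor, Sema3a (1.19), a secreted axon guidance cue, the noncoding RNA Dnm3os (1.47), Ociad2 (1.59) and Tfap2a (1.60), a neural crest transcription factor, against a median of 2.93 over all genes. Sema3a had 0.135, 223, 1.14 and 121 CPM in libraries 1 to 4 of GEM-PNST and a neurofibroma median of 2.91 CPM. Crabp1 ranked 2084 by likeness to Hmga2, at 2.69.

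Closest to Crabp1 were Loxl1 (1.62), a collagen and elastin crosslinking enzyme, Ramp3 (1.64), Clec4n (1.66), Nt5dc2 (1.79) and Slc16a11 (1.83), against a median of 3.48. Loxl1 had 23.2, 1055.6, 505.8 and 668.3 CPM in libraries 1 to 4 of GEM-PNST and a neurofibroma median of 9.16 CPM. The genes closest to Lin28b were nearer to it than these, with differences of 0.53 for Rps6ka6 and Slc35f3, 0.66 for Gabrb2, 0.70 for Disp2 and 0.75 for Gnao1, against a median of 2.25. Gabrb2, a GABA receptor subunit of neurons, had 0, 2.91, 0 and 0 CPM in libraries 1 to 4 of GEM-PNST, counted in library 2 alone like Lin28b, and 1.38 to 8.97 CPM in paraspinal libraries.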

How the data were processed

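Bulk RNA from mouse nerve tumors was measured in 20 libraries, made with the RNeasy Plus Micro and Nextera XT kits per the labels. The authors deposited raw read counts per gene, whole numbers in every column. Per the submitters' processing notes TopHat, HISAT2, featureCounts and mm10 were used. Versions, roles, annotation and strand setting are not given in the sources used here. A deposited sample table names the alignment files, from which the run was read.

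Counts were tested with edgeR 4.0.16 (R 4.3.3), by quasi-likelihood F tests with TMM factors and Benjamini-Hochberg adjustment at 0.05 over all 16589 genes that filterByExpr kept by stage (minimum count 10). Tested genes held 95.78% to 99.97% of counts. Stage comparisons used the libraries of both stages, and the subgroup comparison also used GEM-PNST libraries for the spread. CPM use TMM factors, and log2 CPM a prior count of 2. Floors and intervals cover counting error only. Whether libraries are from separate animals is not in the labels, and p-values then measure only the spread between libraries, which may be technical. Neurofibroma libraries 8 and 9 have the same number in their codes, and GEM-PNST library 2 has nearly the code of paraspinal library 1 of subgroup 1, so some libraries may not be independent. Each of these 4 was left out in turn.

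Members and lists were chosen with earlier results of these data known. Named list genes were up to 3 per list and comparison with the smallest adjusted p among those past the threshold, or, where none passed, the 1 with the highest mean CPM, with exceptions stated. Alternatives were RLE factors, no filter, a filter of 1 CPM in 4 libraries, DESeq2 1.42.0, limma-voom (limma 3.58.1), all libraries in 1 fit, a replicate block, neurofibroma runs alone and libraries left out. Leaving out neurofibroma library 4, and library 7 for Igf2bp1, was chosen after seeing the data. The tests were tried on simulated counts with the same spread for all genes and known log2 changes of 2 or 3. GEM-PNST against paraspinal tumors recovered 26 of 99 and 80 of 99 changed genes, respectively. Subgroup 2 against subgroup 1 recovered 1 of 100 and 8 of 99, and paraspinal against neurofibroma tumors 98 of 100 and 100 of 100. Positions are from GENCODE (GRCm38, the coordinates of mm10).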

Additional observations from a re-analysis of the deposited data

Results flagged for a closer look

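Of 95 groups of 4 libraries for 49 genes, 12 held a library that stood apart from the other 3. This number is not set against chance, since a few counts beside 0 in the other 3 libraries can flag a group. Of the members, Lin28b had 1.29 CPM in GEM-PNST library 2 and 0 in the others, and Igf2bp3 had 0.242 CPM, or 3 counts, in library 4 and 0 in the others. Library 2 also stood apart with 248.2 CPM of Hmg20b and 0.108 CPM of Elavl2. Library 1 did so with 240.6 CPM of Hmgb2 and 13111.4 CPM of Actb. Library 3, which held salivary gland markers, did so with 21.3 CPM of Rdh11, 2.73 CPM of Lrat and 50.2 CPM of Gpc3. Library 4 did so with 7.43 CPM of Ago3 and 372.2 CPM of Dlk1. In paraspinal tumors Nanog stood apart with 0.146 CPM in subgroup 2 library 1. Their causes were not tested.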

How the results depend on the processing

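Paraspinal against neurofibroma tumors had 9888 genes past the threshold, 2968 with the replicate block and 8768 to 10707 under the other alternatives. Members called there were 4, against 2 with the replicate block and 3 to 5 with a library left out. Subgroup 2 against subgroup 1 had 0, but 1212 with DESeq2 and 1255 with all 20 libraries in 1 fit, and 0 with any library left out. GEM-PNST against paraspinal tumors had 1808, against 4650 with DESeq2 (1954 higher, 2696 lower), 7107 when all 20 libraries were fitted together (3858 higher, 3249 lower), 2878 with limma-voom, 948 with the replicate block (105 higher, 843 lower), and 531 to 2406 with a library left out: 850 without paraspinal subgroup 2 library 2, 580 and 531 without subgroup 1 libraries 1 and 2, and 813 without GEM-PNST library 4. The replicate numbers do not pair the samples, since same-numbered libraries had correlations of deviations of -0.259 to 0.168. Among single genes 686 values kept direction and side of the threshold, 46 lost a call (18 of them with the replicate block, Crabp1 at 1.43 and Crabp2 at 2.44 in paraspinal against neurofibroma tumors included), 11 gained one and 16 turned sign, none of these a call. Igf2bp2 in paraspinal against neurofibroma tumors was 0.02 with the replicate block. Insr in GEM-PNST against paraspinal tumors was 0.01 with all 20 libraries, and -0.48 to 0.33 with a library left out. Cyp26b1 in paraspinal against neurofibroma tumors was -0.07 with RLE factors and with DESeq2, -0.08 with all 20 libraries, -0.54 against neurofibromas 1 to 6 alone, and -0.47 to 0.24 with a library left out; in GEM-PNST against paraspinal tumors it was 0.57 with the replicate block and -1.2 to 0.21 with a library left out. The causes were not tested. Counts of Hmga1 and Igf2bp1 were too low for the filter.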
